A study of Zea mays with 18 samples.

Results

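The loci described here are the 89 maize loci that the deposited table names as CCAAT-binding (NF-Y) or ABI3-VP1 transcription factors, out of 77704 assembled loci. They were chosen by name alone, and no measured value entered the choice, though earlier results of these data were known. By the names, 12 are NF-YA genes (HAP2), 4 NF-YB genes (HAP3), 15 NF-YC genes (HAP5), 13 DR1 genes and 45 B3-domain genes (ABI3-VP1). No locus was named leafy cotyledon, and none had to be dropped for also being named viviparous. The genes are written below by their short names, so that HAP2 24 stands for CCAAT-HAP2-transcription factor 24.

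NF-Y is a complex of the subunits NF-YA, NF-YB and NF-YC. NF-YB and NF-YC pair through a histone fold, and NF-YA then joins them and recognises the CCAAT box in promoters. DR1 is a histone-fold protein related to NF-YB that in yeast and animals represses transcription at the TATA-binding protein. The B3 domain is a plant DNA-binding domain, and ABI3, FUS3 and LEC2 of Arabidopsis, together with the NF-YB protein LEC1, are well known regulators of seed maturation. The maize gene viviparous1, after which the ABI3-VP1 family is named, is not among the 89 loci. Auxin response factors carry a B3 domain too, and CO-like proteins have a domain resembling part of NF-YA, so both were set beside the members.

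RNA was sequenced from kernels of 2 inbred lines, DAN3130 and JI63, on day after pollination (DAP) 24, on DAP 35 and at maturity, when the plants had turned yellow, with 3 libraries for each of the 6 groups. Both lines were untreated field-grown inbreds. They differ in kernel folate content, and the comparisons were designed to find transcripts that change during kernel development (DAP 35 against DAP 24, and mature kernels against DAP 35, in each line) or between the lines at a stage. Values are counts per locus normalized by the study, and loci with a mean above 10 across all 18 libraries entered the test. A locus is called higher or lower at an adjusted p under 0.05 from limma, with the adjustment over all 29191 tested loci. Fold changes are differences of log2(normalized count + 1), given ± SE. The study pooled RNA, and the sources used here do not give how the pooling relates to the 3 libraries of a group, so p-values measure the spread between these libraries, which may be technical. Each named change was refitted under 29 or 30 alternatives, which change the scaling, pseudocount, filter or tool or leave out a library. Replicates carry the numbers of the labels. Mapping did not use strand, so reads of a gene and of an antisense partner may not be told apart. For HAP2 28 and ABI3-VP1 51 the overlapped gene is listed under another identifier (Zm00001d022108 and Zm00001d024320). For HAP2 27, HAP5 510 and ABI3-VP1 9 neighbouring genes are listed as antisense. Counts of these members may include reads of those genes.

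Reads in loci ran from 9428728 to 133264978 a library. The residual SD of log2 values was widest in mature kernels, at 1.97 in DAN3130 and 1.19 in JI63, against 0.613 to 0.893 in the immature groups. Kernel compartments changed with stage as well. From DAP 35 to maturity, 31.5% of all tested loci were lower and 19.2% higher in DAN3130, and 27.8% and 17.8% in JI63. Of 10 tested loci listed as starchy endosperm genes (zeins, shrunken and brittle loci), 9 were lower in mature than in DAP 35 kernels of DAN3130 and 10 in JI63. The word brittle also took in brittle stalk2, which is named for the stalk and was among the falls in both lines. The summed count of all 14 named was 3702 to 30607 in mature DAN3130 against 966465 to 1025560 on DAP 35. In JI63 it was 2281 to 4888 in mature kernels against 225067 to 247268. Of 7 tested transfer layer genes, 6 were lower in mature DAN3130 and 4 in mature JI63, and all 10 named were without reads in mature JI63. Summed embryo markers (6 globulin and oleosin loci) were 433109 to 1912130 in mature DAN3130, against 987383 to 1135710 on DAP 35, and 2088520 to 2895200 in mature JI63, against 1014690 to 2807760, with 2 of 4 tested lower in each line and 1 higher in JI63. Of 6 tested aleurone genes, 4 were lower and 1 higher in mature DAN3130, and 1 lower and 1 higher in mature JI63. Of 14 tested green tissue genes, 4 were lower and 3 higher in mature DAN3130, and 3 lower and 2 higher in mature JI63. Fewer cells of a type and less RNA per cell cannot be told apart in such samples, and the part of these shifts in the results below was not tested.

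**Figure D1:**
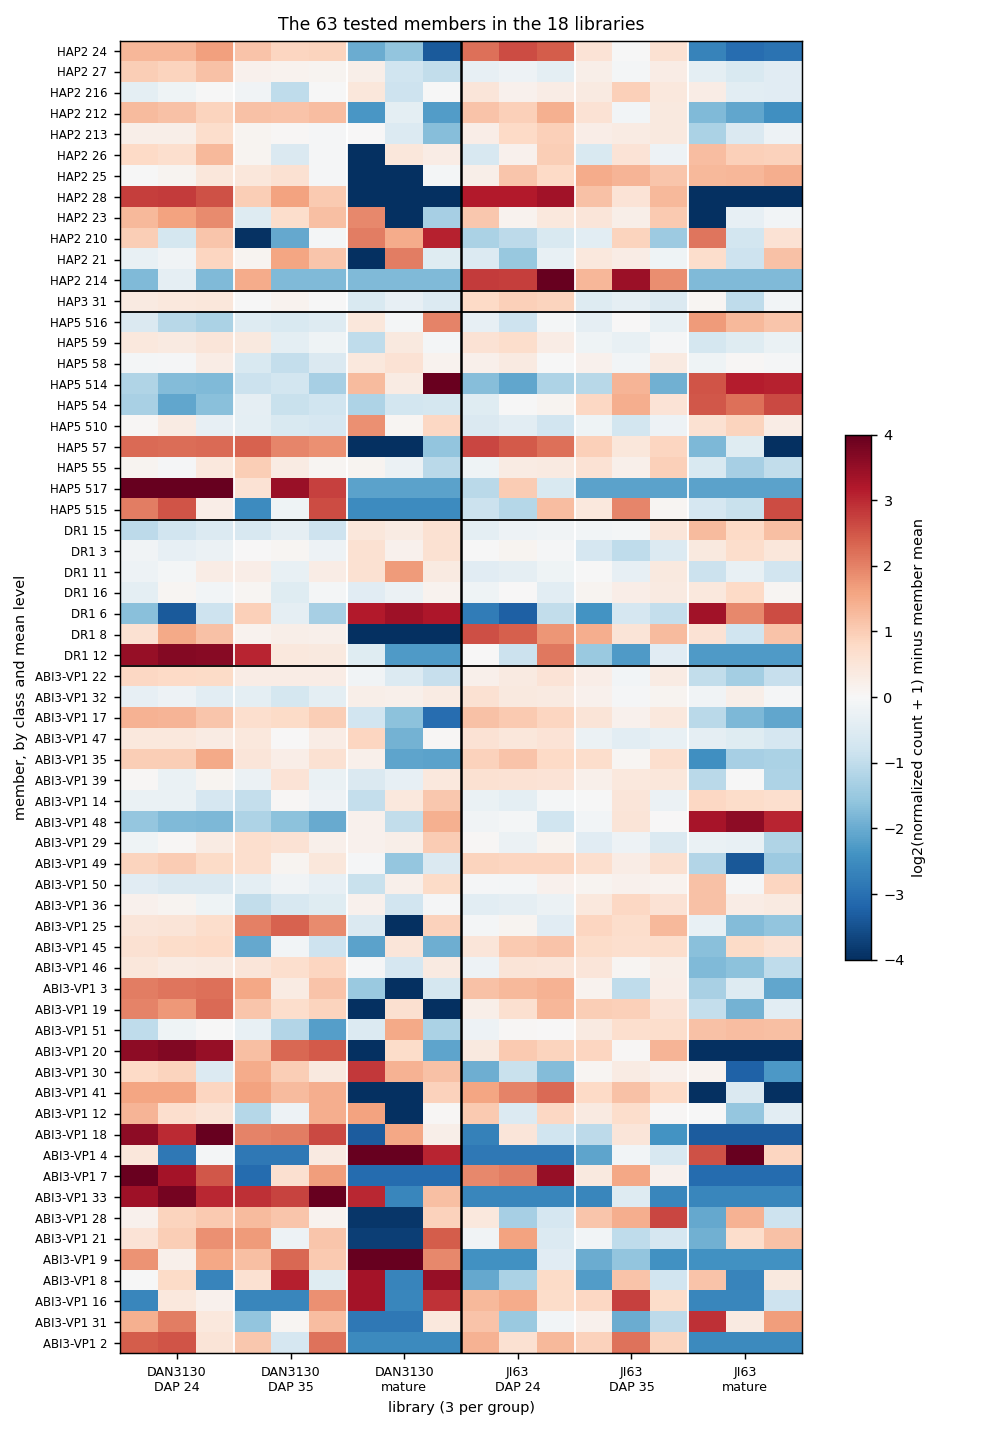
Each cell is log2(normalized count + 1) of a tested member in a library, minus that member's mean over the 18 libraries (colour scale limited to 4 on either side); columns are libraries, 3 per group, and rows are the 63 tested members by class and mean level. HAP2 24 and HAP2 28 are lower in all 6 mature libraries than in the 12 others, and DR1 6 is higher.

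Of the 89 members, 63 passed the filter, among them all 12 NF-YA, 1 NF-YB, 10 NF-YC, 7 DR1 and 33 B3 loci. The filter favours genes that are high in at least 1 group, so the counts below are over these 63 and not over all members. The 26 others were 3 NF-YB, 5 NF-YC, 6 DR1 and 12 B3 loci. No library held a read of 10 of the 26, including HAP3 32, HAP3 33 and HAP3 34, which allows up to 3 reads in a library. The highest single value among the 26 was 92.1 normalized counts, for HAP5 513 in a mature library of DAN3130. HAP3 31 (Zm00001d042968, chromosome 3, 185334716 to 185337066 on the AGPv4 assembly of B73) was thus the only tested locus named HAP3. Any NF-YB genes without that name are not counted here.

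Levels between genes were compared per kilobase of the longest isoform. The order changed with the stage, so means over all libraries are given only as a guide. HAP5 516, an NF-YC gene, had 1611 normalized counts per kilobase over all libraries, HAP3 31 1249 and HAP2 24 789. On DAP 24 HAP3 31 and HAP2 24 were above HAP5 516, with 1541, 1092 and 659 per kilobase in DAN3130 for HAP3 31, HAP2 24 and HAP5 516, and 2150.0, 2169 and 986 in JI63. At maturity HAP5 516 led, with 2675 per kilobase in DAN3130 and 3359 in JI63, before HAP5 514 with 1456 and 1762. HAP2 24 was the leading NF-YA gene in every group but mature JI63, where it had 54.9 per kilobase and HAP2 26, chosen after its values were seen, had 72.9. Among B3 genes ABI3-VP1 47, also chosen after its values were seen, had the highest mean in every group but mature JI63, where ABI3-VP1 48 led with 720 per kilobase. On DAP 35 in JI63 ABI3-VP1 47 had 440.1, against 438.9 for ABI3-VP1 22 and 432.0 for ABI3-VP1 32. In mature DAN3130 ABI3-VP1 47 had a wide spread, with 987 ± 731 normalized counts (SD, n = 3). DR1 15 led the DR1 genes in every group but mature DAN3130, where DR1 6 had 635 and DR1 15 576 per kilobase. As a share of counts, which longer genes raise, HAP2 24 alone gave 57.3 ± 1.04% of all NF-YA counts in DAN3130 and 77.6 ± 2.56% in JI63 on DAP 24 (SD, n = 3). In mature kernels HAP2 27 led instead, with 31.0 ± 8.57% in DAN3130 and 30.4 ± 0.962% in JI63.

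In the fit of all 6 groups, few members were called between DAP 24 and DAP 35. That fit shares 1 estimate of spread with the more variable mature libraries, so a member without a call may still have changed. Of 7 called changes, 5 were in JI63, and 4 of these 5 were in NF-Y subunit genes. In DAN3130 (comparison I), 2 of the 63 members were lower on DAP 35 than on DAP 24 and none was higher by limma, where 2.14% of all tested loci were lower and 4.41% higher. At an unadjusted p under 0.05, 10 members were lower and 1 was higher. edgeR called 1 lower and 0 higher, and DESeq2 3 lower and 1 higher. In JI63 (comparison II), 4 members were lower and 1 was higher, beside 4.82% and 4.27% of all loci. The median log2 fold change of the members was -0.34 in DAN3130 and -0.01 in JI63, beside -0.04 in DAN3130 and 0.00 in JI63 for all tested loci. These counts moved with the fit. Over the 12 immature libraries alone, a choice made after seeing the data, 15 members were called in DAN3130 and 19 in JI63. The counts of all tested loci were not kept for that fit or for those without a library. Whether these shifts are particular to the members was not tested. Leaving out single libraries gave 0 to 6 calls in DAN3130, with 0 without replicate 10 or 11 of DAP 24, 1 without replicate 8 of DAP 24, replicate 13 of DAP 35 or JI63 replicate 26, 3 without JI63 replicate 27, 4 without mature replicate 33 or 35, and 6 without mature replicate 34. In JI63 they gave 3 to 8 calls, with 3 without replicate 24 of DAP 24 or 27 of DAP 35 and 8 without mature DAN3130 replicate 34.

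The NF-YA gene HAP2 24 (Zm00001d006835, chromosome 2, 217595882 to 217600202) fell at both steps in JI63 and by maturity in DAN3130. In DAN3130 it had 2524, 2558 and 3150.3 normalized counts on DAP 24, 2219, 1825 and 1898 on DAP 35 and 258, 340.0 and 98.3 at maturity. In JI63 it had 4646, 6255 and 5451 on DAP 24, 1482, 1004 and 1557 on DAP 35 and 160.0, 122 and 131 at maturity. No 2 stages of a line overlapped, and the order of stages was the same in both lines. By DAP 35 it fell in JI63 (log2 fold change -2.03 ± 0.34, adjusted p = 0.00139), while the change in DAN3130 did not pass (-0.47 ± 0.34, adjusted p = 0.548). The difference of the lines in this step was 1.56 ± 0.48, adjusted p = 0.105, past the threshold in 7 of 30 alternatives. By maturity it fell in both lines, with -3.26 ± 0.34, adjusted p = 1.46e-06 in DAN3130. The fall in JI63 was -3.26 ± 0.34, adjusted p = 1.71e-06. Every alternative called these 3 falls. On DAP 24 it was also lower in DAN3130 than in JI63 (-0.99 ± 0.34, adjusted p = 0.0421), in 15 of 30 alternatives.

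HAP2 28 (Zm00001d022109, chromosome 7, 170559870 to 170564261), another NF-YA gene, was highest on DAP 24 too. It had 114, 117 and 97.9 normalized counts on DAP 24 and 32.7, 51.1 and 34.2 on DAP 35 in DAN3130, and 150.3, 153 and 174 on DAP 24 and 37.5, 23.6 and 40.9 on DAP 35 in JI63. None of the 6 mature libraries held a read of it. In JI63 it fell by DAP 35 (log2 fold change -2.23 ± 0.49, adjusted p = 0.00839). Against a limit of 3 reads over the group, mature kernels were at least 21.3-fold lower than DAP 35 kernels in DAN3130 and at least 14.5-fold lower in JI63, and limma called both falls (adjusted p = 4.36e-07 and 7.91e-07). Such bounds cover counting error only.

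The only tested locus named as NF-YB, HAP3 31, fell in JI63 too. It had 986, 1089 and 928 normalized counts on DAP 35 in JI63, against 2446, 2698 and 2616 on DAP 24, and the groups did not overlap (log2 fold change -1.37 ± 0.22, adjusted p = 0.000998). All 30 alternatives called this fall. In DAN3130 it had 1371, 1533 and 1389.6 on DAP 35, against 1783, 1871 and 1907 on DAP 24, also without overlap but past no threshold (-0.37 ± 0.22, adjusted p = 0.411). Mature kernels had 908, 1112 and 950.2 in DAN3130 and 1484, 687 and 1290.1 in JI63, and neither step to maturity passed by limma (-0.54 ± 0.22, adjusted p = 0.051 in DAN3130 and 0.13 ± 0.22, adjusted p = 0.667 in JI63). In DAN3130 the mature libraries lay below all DAP 35 libraries, and edgeR and DESeq2 both called that fall, which 7 of 29 alternatives called. With every library scaled to the same total count, HAP3 31 was lower at maturity in both lines (-1.01, adjusted p = 0.000975 in DAN3130 and -0.82, adjusted p = 0.00441 in JI63), so that the sign in JI63 turned with the scaling.

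The NF-YC gene HAP5 58 (Zm00001d007436, chromosome 2, 231673422 to 231677498) had 672, 531 and 690.1 normalized counts on DAP 35 in DAN3130, against 978, 997 and 1268 on DAP 24 (log2 fold change -0.78 ± 0.19, adjusted p = 0.0204). The fall lost its call under both other scalings, without a mean-variance trend, and without DAP 24 replicate 10 or 11 or DAP 35 replicate 13. DR1 3 (Zm00001d050242, chromosome 4, 75567130 to 75573713) fell in JI63, with 636, 497 and 699 on DAP 35 against 1007, 1086 and 979 on DAP 24 (-0.76 ± 0.18, adjusted p = 0.0132), and lost its call with equal totals and without replicate 24 of DAP 24 or 27 of DAP 35. HAP5 54, an NF-YC gene taken up again below, was the only member that rose in JI63, with 551, 841 and 447 against 221, 307 and 328 (1.07 ± 0.30, adjusted p = 0.0375). This call held in 23 of 30 alternatives, and leaving out any DAP 24 library or DAP 35 replicate 26 or 27 ended it. The second fall in DAN3130 was ABI3-VP1 7, a B3 gene under the level set for naming and chosen after its values were seen, with 0, 12.1 and 25.9 against 129, 85.1 and 46.7 (-3.52 ± 0.95, adjusted p = 0.037), called in 20 of 30 alternatives.

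One difference of the lines passed at this step. The B3 gene ABI3-VP1 36 (Zm00001d049094, chromosome 4, 15846668 to 15850093) had 139, 177 and 196 normalized counts on DAP 35 in DAN3130, against 311, 298 and 244 on DAP 24. The JI63 libraries held 373, 491 and 411 on DAP 35, against 206, 215 and 235 on DAP 24. It was thus lower on DAP 35 in every DAN3130 library and higher in every JI63 library, and the difference of the changes was -1.69 ± 0.43 (adjusted p = 0.0498), with 11 of 30 alternatives past the threshold. Leaving out any single immature library ended this call, as did mature JI63 replicate 41. On DAP 35 itself it was lower in DAN3130 than in JI63 (-1.31 ± 0.30, adjusted p = 0.00393) in all 30 alternatives. Among the 63 members 1 difference was lower in DAN3130 and none higher by limma, beside 0.706% and 1.66% of all loci. At an unadjusted p under 0.05 there were 4 lower and 3 higher, edgeR called 0 and 1, and DESeq2 called 2 and 3.

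The change to maturity reached 33 of the 63 members in DAN3130 and 25 in JI63, with more falls than rises in both lines. In DAN3130 (comparison III), 21 of 63 members were lower and 12 higher in mature than in DAP 35 kernels, beside 31.5% and 19.2% of all tested loci. In JI63 (comparison IV), 16 were lower and 9 higher, beside 27.8% and 17.8%. These shares of the members are 33.3% and 19.0% in DAN3130 and 25.4% and 14.3% in JI63, near those of all loci. Both lines shared 11 falls and 8 rises. Of 19 members called in both lines, 0 went in opposite directions by limma, and none of those called at an unadjusted p (24), by edgeR (18) or by DESeq2 (21) did. The matching shares of all tested loci were not computed, so whether this agreement is particular to the members was not tested.

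The size of these changes depends on how mature libraries are scaled. The 100 loci with the most reads took 19.9% to 49.5% of a library. The median log2 fold change of all tested loci was -0.43 in DAN3130 and -0.36 in JI63 on the deposited scale, and -0.86 and -1.18 with libraries set to equal totals. The members' medians were -0.80 and -0.65 on the deposited scale (-0.79 and -0.46 with loci without reads placed at their bounds) and -1.26 and -1.27 with equal totals. With equal totals 27 members were lower and 7 higher in DAN3130, and 33 lower and 3 higher in JI63. Of all 29191 tested loci, 11559 were lower and 4048 higher on that scale in DAN3130, and 12855 and 2502 in JI63. No called member changed sign. The 3 members still higher in JI63 were HAP5 514, DR1 6 and ABI3-VP1 48.

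**Figure D2:**
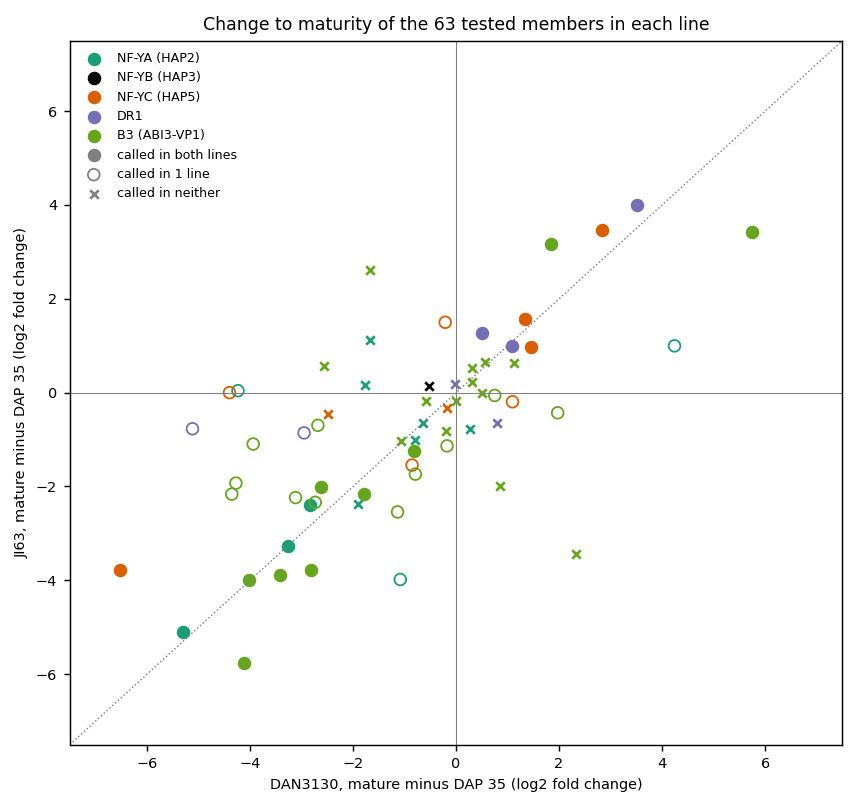
Each point is a tested member, with its log2 fold change from DAP 35 to maturity in DAN3130 on the horizontal and in JI63 on the vertical axis; colours give the class, and filled, open and crossed points were called in both lines, 1 line or neither. The 11 members that fell in both lines lie at the lower left and the 8 that rose in both at the upper right, and the 2 axes share no library.

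NF-YA genes fell in shares near those of all tested loci. In DAN3130, 4 of 12 were lower and 1 was higher, which is 33.3% and 8.33% beside 31.5% and 19.2% of all loci. In JI63, 4 (33.3%, beside 27.8% of all loci) were lower, among them HAP2 214 with no read at maturity (at least 7.81-fold lower, adjusted p = 0.00111), and none was higher by limma, at an unadjusted p, by edgeR or by DESeq2. Besides HAP2 24 and HAP2 28, HAP2 212 (Zm00001d041491, chromosome 3, 123754899 to 123767309), chosen after its values were seen, fell in both lines. It had 24.1, 95.6 and 25.9 normalized counts in mature DAN3130, against 285, 278 and 296 on DAP 35 (log2 fold change -2.83 ± 0.45, adjusted p = 8.95e-05). In JI63 it had 36.1, 29.0 and 21.9, against 188, 116 and 165 (-2.39 ± 0.45, adjusted p = 0.000465). The mature and DAP 35 libraries did not overlap in either line, and all 29 alternatives called both falls. The rise was that of HAP2 210 in DAN3130, a low-level gene chosen after its values were seen, with 62.8, 42.5 and 129.6 against 0, 2.69 and 13.5 (4.24 ± 0.99, adjusted p = 0.00225).

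HAP2 25 (Zm00001d031092, chromosome 1, 176869959 to 176875893) separated the lines at maturity. It had 0, 0 and 52.9 normalized counts in mature DAN3130, against 76.7, 84.7 and 53.0 on DAP 35. JI63 kernels had 137, 141 and 153 at maturity, against 155, 144 and 121 on DAP 35. In mature DAN3130 a single library held reads, all 3 values lay below those of DAP 35 (-4.23 ± 1.06, adjusted p = 0.00351), and the JI63 stages overlapped. It was lower in mature DAN3130 than in mature JI63 (log2 fold change -5.26 ± 1.06, adjusted p = 0.00104), a call that 28 of 29 alternatives kept, but the difference of the lines in the change was -4.28 ± 1.49, adjusted p = 0.0701. HAP2 216, an NF-YA gene named for its mean count of 192, was called in none of the 7 comparisons.

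NF-YC genes moved in both directions. In each line 4 of 10 (40.0%) were higher and 2 (20.0%) lower, beside 19.2% higher and 31.5% lower of all loci in DAN3130 and 17.8% and 27.8% in JI63. HAP5 514 (Zm00001d052838, chromosome 4, 202307061 to 202309498) rose the most. It had 499.7, 259 and 3168 normalized counts in mature DAN3130, against 112, 122 and 81.8 on DAP 35 (log2 fold change 2.83 ± 0.80, adjusted p = 0.00815). The JI63 libraries held 1184, 1814 and 1755, against 94.9, 529.8 and 53.9 (3.47 ± 0.80, adjusted p = 0.0023). Mature and DAP 35 libraries did not overlap, but mature DAN3130 replicate 35 was far above the other mature DAN3130 libraries and JI63 DAP 35 replicate 27 far above its own group. The separate intron entry of the locus also held counts, with means of 579 in mature DAN3130 and 211 in mature JI63.

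HAP5 516 (Zm00001d020874, chromosome 7, 135216115 to 135217128), the NF-YC gene with the highest mean, rose in both lines on the deposited scale. It had 1791, 1225 and 5121 normalized counts in mature DAN3130, against 903, 852 and 906 on DAP 35 (log2 fold change 1.34 ± 0.38, adjusted p = 0.00883). In JI63 it had 4262, 3168 and 2789.5, against 1014, 1312 and 1058 (1.58 ± 0.38, adjusted p = 0.0033), but with equal totals that change was 0.63 (adjusted p = 0.128). HAP5 510 (Zm00001d038557, chromosome 6, 159799343 to 159805085) also rose on the deposited scale, with 1337, 400.2 and 676 against 291, 250.0 and 236 in DAN3130 (1.46 ± 0.35, adjusted p = 0.00276) and 586, 698 and 467 against 334, 227 and 331 in JI63 (0.97 ± 0.35, adjusted p = 0.0342). With equal totals its changes were 0.99 in DAN3130 and 0.02 in JI63, and neither passed. The remaining rises were those of HAP5 58 in DAN3130 (1.09 ± 0.19, adjusted p = 0.000178), which with equal totals was 0.62 and not called, and of HAP5 54 in JI63, given with the line comparisons.

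HAP5 57 (Zm00001d046967, chromosome 9, 113418867 to 113423473) fell. It had 2.41, 0 and 36.7 normalized counts in mature DAN3130, against 572, 430.0 and 399.8 on DAP 35 (log2 fold change -6.52 ± 1.29, adjusted p = 0.000609). JI63 kernels had 31.0, 78.7 and 0, against 216, 153 and 200.8 (-3.79 ± 1.29, adjusted p = 0.0252). All mature libraries were below all immature ones in both lines. The call in JI63 was lost without DAP 35 replicate 26 or 29 or mature replicate 41. The other falls were those of HAP5 517 in DAN3130, where mature kernels were at least 14.6-fold lower (adjusted p = 8.19e-05), and of HAP5 55 in JI63, with 139, 82.8 and 107 against 314, 244 and 408 (-1.54 ± 0.36, adjusted p = 0.00262). HAP5 55 was chosen after its values were seen. HAP5 59, named for its mean count, was called in none of the 7 comparisons, with 999 ± 448 in mature DAN3130 against 1074 ± 307 on DAP 35, and 788 ± 126 in mature JI63 against 977 ± 89.2 (SD, n = 3).

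Of 7 tested DR1 genes 3 were higher in both lines on the deposited scale, while 2 were lower in DAN3130 and none in JI63 by limma, at an unadjusted p, by edgeR or by DESeq2. The 3 rises are 42.9% of the DR1 genes, beside 19.2% of all loci in DAN3130 and 17.8% in JI63, and the 2 falls are 28.6%, beside 31.5%. DR1 6 (Zm00001d006813, chromosome 2, 217201427 to 217202044) had 364, 432 and 380.1 normalized counts in mature DAN3130, against 78.1, 30.9 and 15.3 on DAP 35 (log2 fold change 3.51 ± 0.81, adjusted p = 0.00203). The JI63 libraries held 423, 155 and 251, against 6.77, 24.4 and 20.1 (3.99 ± 0.81, adjusted p = 0.00086). All 6 mature libraries lay above all 12 immature ones. DR1 15 (Zm00001d010574, chromosome 8, 120713490 to 120717380), the DR1 gene with the highest mean count, had 2168, 1983 and 2448 against 1018, 1239 and 889 in DAN3130 (1.08 ± 0.20, adjusted p = 0.000398) and 3855, 2739 and 3678 against 1479.6, 1491 and 2216 in JI63 (1.0 ± 0.20, adjusted p = 0.00087). With equal totals the change in JI63 was 0.04 (adjusted p = 0.913). For DR1 3 the rise was 0.51 ± 0.18, adjusted p = 0.0254 in DAN3130 and 1.26 ± 0.18, adjusted p = 3.52e-05 in JI63, and with equal totals 0.04 and 0.31, past no threshold.

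DR1 8 (Zm00001d012445, chromosome 8, 174626161 to 174634984) differed between the lines at maturity. None of its 3 mature DAN3130 libraries held a read, against 32.7, 34.9 and 33.6 normalized counts on DAP 35. In JI63 it had 43.9, 16.6 and 65.7 at maturity, against 82.6, 42.3 and 71.0 on DAP 35. Mature DAN3130 was at least 18.2-fold lower than DAP 35 DAN3130 and at least 22.7-fold lower than mature JI63, and limma called both (adjusted p = 2.67e-06 and 2.39e-06) in all 29 alternatives. The difference of the lines in the change to maturity passed as well (adjusted p = 0.00199), and 28 of 29 alternatives kept it.

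**Figure D3:**
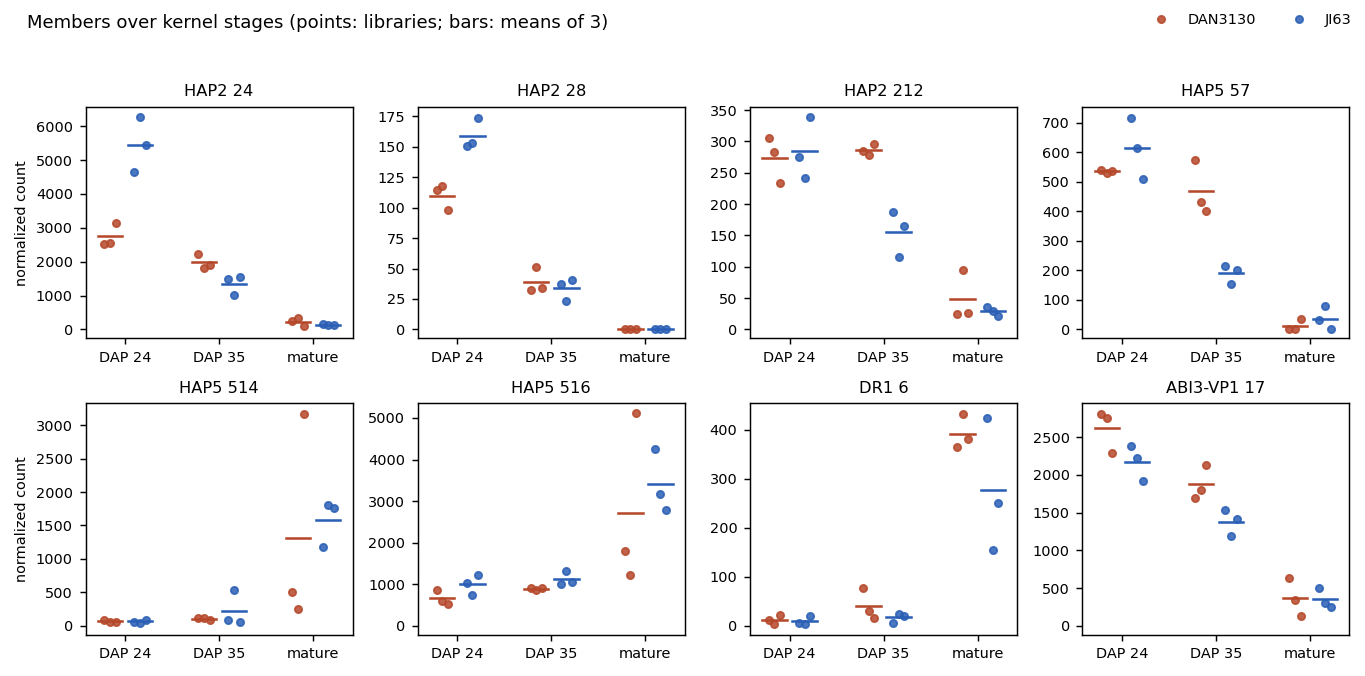
Normalized counts of 8 members by stage, with a point for each library and a bar for the mean of 3, DAN3130 left of JI63 at each stage; every vertical axis is linear and has its own range. HAP2 24, HAP2 28, HAP2 212, HAP5 57 and ABI3-VP1 17 are lowest at maturity in both lines, and HAP5 514, HAP5 516 and DR1 6 highest, with replicate 35 of mature DAN3130 far above its group for the first 2 of these.

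More B3 genes fell than rose, as was also so for all tested loci. In DAN3130, 13 of 33 were lower and 4 higher at maturity, which is 39.4% and 12.1% beside 31.5% and 19.2% of all loci. In JI63, 10 were lower and 2 higher, which is 30.3% and 6.06% beside 27.8% and 17.8%. Both lines shared the falls of ABI3-VP1 2, ABI3-VP1 7, ABI3-VP1 17, ABI3-VP1 20, ABI3-VP1 22, ABI3-VP1 35 and ABI3-VP1 41, of which ABI3-VP1 2, 7, 35 and 41 were chosen after their values were seen. ABI3-VP1 22 (Zm00001d021790, chromosome 7, 163070121 to 163078254) had 1955, 1463 and 1138 normalized counts in mature DAN3130, against 2614, 2622 and 2629 on DAP 35 (log2 fold change -0.82 ± 0.19, adjusted p = 0.00196). JI63 kernels had 1089, 832 and 1139, against 2605, 1988 and 2684 (-1.25 ± 0.19, adjusted p = 6.80e-05). The mature libraries lay below the DAP 35 ones in both lines.

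ABI3-VP1 17 (Zm00001d003601, chromosome 2, 49476545 to 49482029) fell in both lines as well. It had 628, 340.0 and 129.6 normalized counts in mature DAN3130, against 1695, 1795 and 2131 on DAP 35 (log2 fold change -2.62 ± 0.40, adjusted p = 6.47e-05). The JI63 libraries held 503, 304 and 251, against 1528, 1189.8 and 1415 (-2.02 ± 0.40, adjusted p = 0.00072). All 29 alternatives called the falls of ABI3-VP1 17 and of ABI3-VP1 22 in each line. ABI3-VP1 20 (Zm00001d011745, chromosome 8, 160627041 to 160632223) had no read in mature JI63, against 57.9, 32.6 and 81.6 on DAP 35, which makes mature kernels at least 24.5-fold lower (adjusted p = 0.000203). In mature DAN3130 it had 0, 53.1 and 6.48, against 73.9, 157 and 175 on DAP 35 (-4.11 ± 0.99, adjusted p = 0.0027). ABI3-VP1 25 (Zm00001d033324, chromosome 1, 259037229 to 259041608) fell in DAN3130, with 94.1, 0 and 270.0 against 571, 734 and 524 (-4.35 ± 1.32, adjusted p = 0.012), and its mature libraries spread the most of all tested members in that group.

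Other B3 falls were called in a single line, and apart from ABI3-VP1 25 and ABI3-VP1 46 these genes were chosen after their values were seen. In DAN3130 these were ABI3-VP1 3, ABI3-VP1 18, ABI3-VP1 19, ABI3-VP1 28 and ABI3-VP1 33 beside ABI3-VP1 25, with log2 fold changes of -4.35 to -2.68, and the calls of ABI3-VP1 18 and ABI3-VP1 33 held in only 9 and 8 of 29 alternatives. In JI63 these were ABI3-VP1 39, ABI3-VP1 46 and ABI3-VP1 49, with -1.14, -1.74 and -2.54. ABI3-VP1 39 shares its locus with a second gene. For none of these 9 did the difference of the lines pass by limma.

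The rising B3 genes were ABI3-VP1 4 and ABI3-VP1 48 in both lines, and ABI3-VP1 9 (chosen after its values were seen) and ABI3-VP1 32 in DAN3130. With equal totals ABI3-VP1 4 lost its call in JI63 (2.60, adjusted p = 0.0628), and ABI3-VP1 9 (1.53, adjusted p = 0.129) and ABI3-VP1 32 (0.28, adjusted p = 0.271) lost theirs in DAN3130. ABI3-VP1 48 (Zm00001d044355, chromosome 3, 225696574 to 225699442) had 196, 88.5 and 473 normalized counts in mature DAN3130, against 73.9, 55.1 and 42.4 on DAP 35 (log2 fold change 1.84 ± 0.47, adjusted p = 0.00429). In JI63 it had 1742, 2109.6 and 1451, against 160.5, 252 and 178 (3.17 ± 0.47, adjusted p = 5.86e-05). In mature JI63 it gave 20.4 ± 2.76% of all B3 counts (SD, n = 3). ABI3-VP1 4, under the level set for naming and chosen after its values were seen, had 164, 142 and 59.4 against 0, 0 and 8.24 in DAN3130 (5.74 ± 1.06, adjusted p = 0.000344) and 41.3, 116 and 12.2 against 0.694, 5.70 and 3.65 in JI63 (3.42 ± 1.06, adjusted p = 0.0153).

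Summed over each class, NF-YA counts had means of 4783, 3338 and 1138 on DAP 24, on DAP 35 and at maturity in DAN3130, and of 7007, 2826 and 1134 in JI63. The 45 B3 loci summed to 14798, 11619 and 8717 in DAN3130 and to 13558, 11111 and 8632 in JI63. Both classes were lowest at maturity also as a share of all counts in loci. NF-YC and DR1 sums were highest at maturity on the deposited scale, but not as a share of the library in JI63, where DR1 loci took 0.0125%, 0.0131% and 0.0122% and NF-YC loci 0.0212%, 0.0199% and 0.0193%. In mature DAN3130 the NF-YC sums were 5907, 5291 and 11469, so 1 library raised the mean. As a share, NF-YC loci took 0.0215 ± 0.0062% there, against 0.0195 ± 0.00082% on DAP 24 (SD, n = 3). No test was made on these sums.

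**Figure D4:**
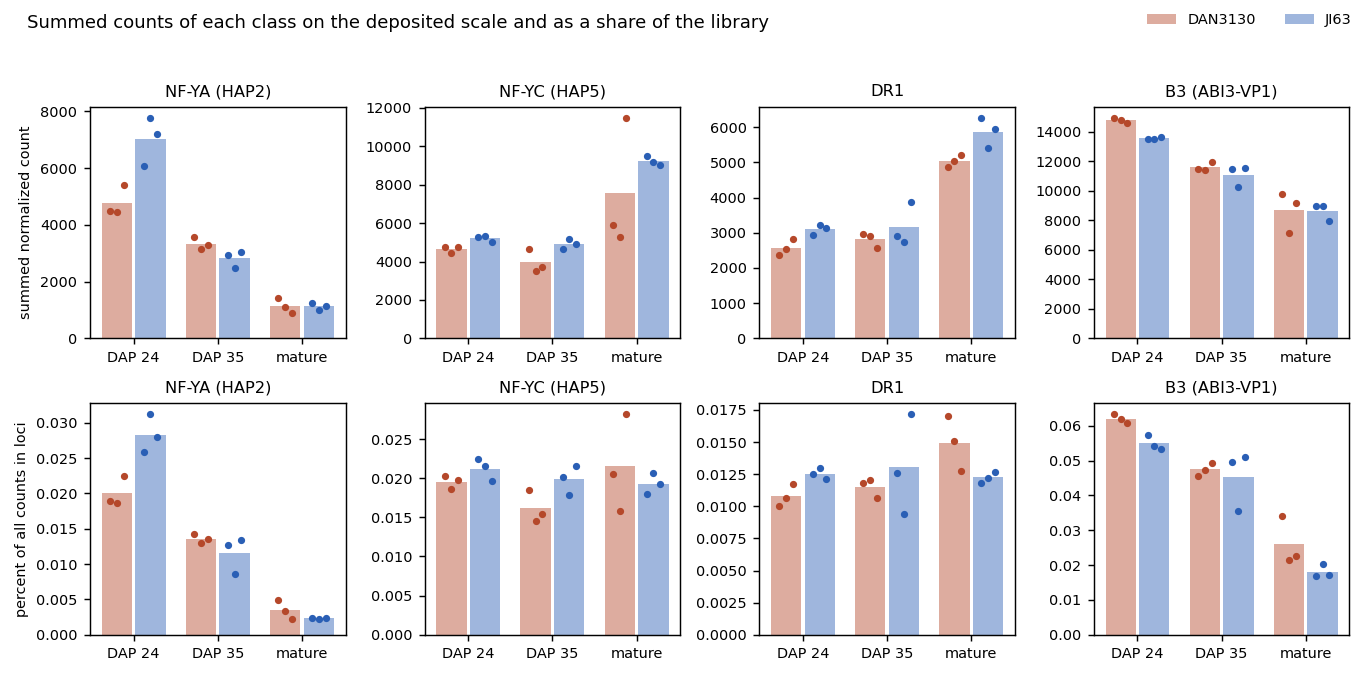
Summed normalized counts of all loci of a class (upper row) and the same sums as a percent of all counts in loci (lower row), by stage, with bars for the mean of 3 libraries, points for libraries and DAN3130 left of JI63. NF-YA and B3 sums are lowest at maturity on both scales, while the DR1 and NF-YC sums of JI63 are highest at maturity only in the upper row.

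Related genes outside the 89 loci were counted for comparison. Of all tested loci, 31.5% were lower and 19.2% higher at maturity in DAN3130, and 27.8% and 17.8% in JI63. Of 31 tested auxin response factors, 22 were lower and 1 higher at maturity in DAN3130, and 18 lower and 1 higher in JI63. Of 7 tested CO-like genes, 1 was lower and 3 higher in DAN3130, and 2 lower and 3 higher in JI63. Of 12 tested seed maturation genes (globulins, oleosins, viviparous loci and others chosen by name), 6 were lower and 3 higher in DAN3130, and 6 lower and 4 higher in JI63. Among the last, viviparous1 averaged 15631 normalized counts in mature DAN3130, against 2482 on DAP 35 (log2 fold change 2.51, adjusted p = 1.23e-05). Its mean in mature JI63 was 16149, against 3505 on DAP 35 (2.30, adjusted p = 3.36e-05).

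Between the lines, members differed at every stage and in both directions. On DAP 24, 7 of 63 members were higher and 5 lower in DAN3130 than in JI63, beside 11.2% and 13.6% of all tested loci. On DAP 35, 7 were higher and 8 lower, beside 11.3% and 11.9%. In mature kernels, 9 were higher and 7 lower, beside 15.6% and 21.5%. With equal totals the mature split was 13 higher and 5 lower, beside 6621 higher and 4400 lower of all 29191 tested loci. The median of all loci was 0.16 on that scale and -0.13 on the deposited one. The mature count ran from 12 to 26 when single libraries were left out, with 26 without DAN3130 replicate 35, and it was 4 when only the mature groups were fitted and 5 with a variance for each group. Of all tested loci, 1558 were higher and 2105 lower in the first of these 2 fits and 1714 and 2714 in the second. Over the 12 immature libraries alone, 22 members differed on DAP 24 and 28 on DAP 35, and counts of all loci were not kept for that fit. HAP5 54 and ABI3-VP1 48 were lower in DAN3130 at all 3 stages, and ABI3-VP1 9 and ABI3-VP1 33 were higher at all 3. Compartment markers differed as well. On DAP 24, on DAP 35 and at maturity, 2, 5 and 8 of 10 listed starchy endosperm loci were higher in DAN3130. None was lower, and brittle stalk2 was among those not called. Of 7 transfer layer genes, 5, 6 and 1 were higher at these stages, with 1 lower on DAP 35. The part of these in the line differences was not tested. Reads of both lines were mapped to the B73 genome, and whether a line lacks a locus or differs there in sequence was not tested. Missing reads in a line therefore need not mean lower expression.

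HAP5 54 (Zm00001d034872, chromosome 1, 304416011 to 304432406) is an NF-YC gene. In DAN3130 it had 125, 72.6 and 94.9 normalized counts on DAP 24, 241, 164 and 176 on DAP 35 and 130.3, 184 and 187 at maturity. JI63 kernels had 221, 307 and 328 on DAP 24, 551, 841 and 447 on DAP 35 and 1721, 1431 and 1906 at maturity. The lines did not overlap at any stage. DAN3130 was lower on DAP 24 (log2 fold change -1.55 ± 0.30, adjusted p = 0.00108), on DAP 35 (-1.63 ± 0.30, adjusted p = 0.000775) and at maturity (-3.34 ± 0.30, adjusted p = 4.03e-07), and every alternative called all 3. The change to maturity differed between the lines (-1.71 ± 0.43, adjusted p = 0.0148), with a rise in JI63 (1.50 ± 0.30, adjusted p = 0.000835) that was 0.55 with equal totals (adjusted p = 0.113).

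ABI3-VP1 48, whose rise at maturity is given above, had 59.4, 50.4 and 49.7 normalized counts in DAN3130 on DAP 24, against 159, 165 and 100.2 in JI63 (log2 fold change -1.37 ± 0.47, adjusted p = 0.0451). DAN3130 was lower on DAP 35 (-1.78 ± 0.47, adjusted p = 0.011) and at maturity (-3.11 ± 0.47, adjusted p = 8.52e-05). The lines did not overlap at any stage. The DAP 24 call held in 17 of 30 alternatives and the other 2 in all.

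ABI3-VP1 33 (Zm00001d011639) and HAP5 517 (Zm00001d023466) had few or no reads in JI63, and both were chosen after their values were seen. ABI3-VP1 33 had 63.1, 86.7 and 48.2 normalized counts in DAN3130 on DAP 24, against no read in JI63, and was at least 100.2-fold higher (adjusted p = 0.000377). On DAP 35 it had 45.5, 39.0 and 97.2 in DAN3130, against 0, 3.26 and 0 in JI63 (log2 fold change 5.13 ± 1.04, adjusted p = 0.00157). At maturity it had 48.3, 0 and 13.0 in DAN3130 and no read in JI63. HAP5 517 had 84.6, 79.5 and 121 in DAN3130 on DAP 24, against 1.08, 8.03 and 1.93 in JI63 (4.64 ± 0.69, adjusted p = 9.52e-05). On DAP 35 it had 5.68, 47.0 and 28.3 in DAN3130 and no read in JI63, which makes DAN3130 at least 102-fold higher (adjusted p = 0.000167), and no mature library of either line held a read of it.

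HAP2 214 (Zm00001d007882), also chosen after its values were seen, had few reads in DAN3130. On DAP 24 it had 0, 1.64 and 0 normalized counts in DAN3130, against 22.6, 22.5 and 72.7 in JI63 (log2 fold change -4.64 ± 0.84, adjusted p = 0.00054). On DAP 35 it had 8.52, 0 and 0, against 7.63, 35.8 and 11.4, with overlap between the lines (-2.90 ± 0.84, adjusted p = 0.0183). No mature library held a read of it. HAP2 27 (Zm00001d026305, chromosome 10, 143264094 to 143272292) was called between the lines on DAP 24, with 944, 902 and 1089.5 in DAN3130, against 383, 415 and 367 in JI63 (1.33 ± 0.26, adjusted p = 0.00119), and had 538, 528 and 515 on DAP 35, against 564, 459.8 and 588 in JI63.

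**Figure D5:**
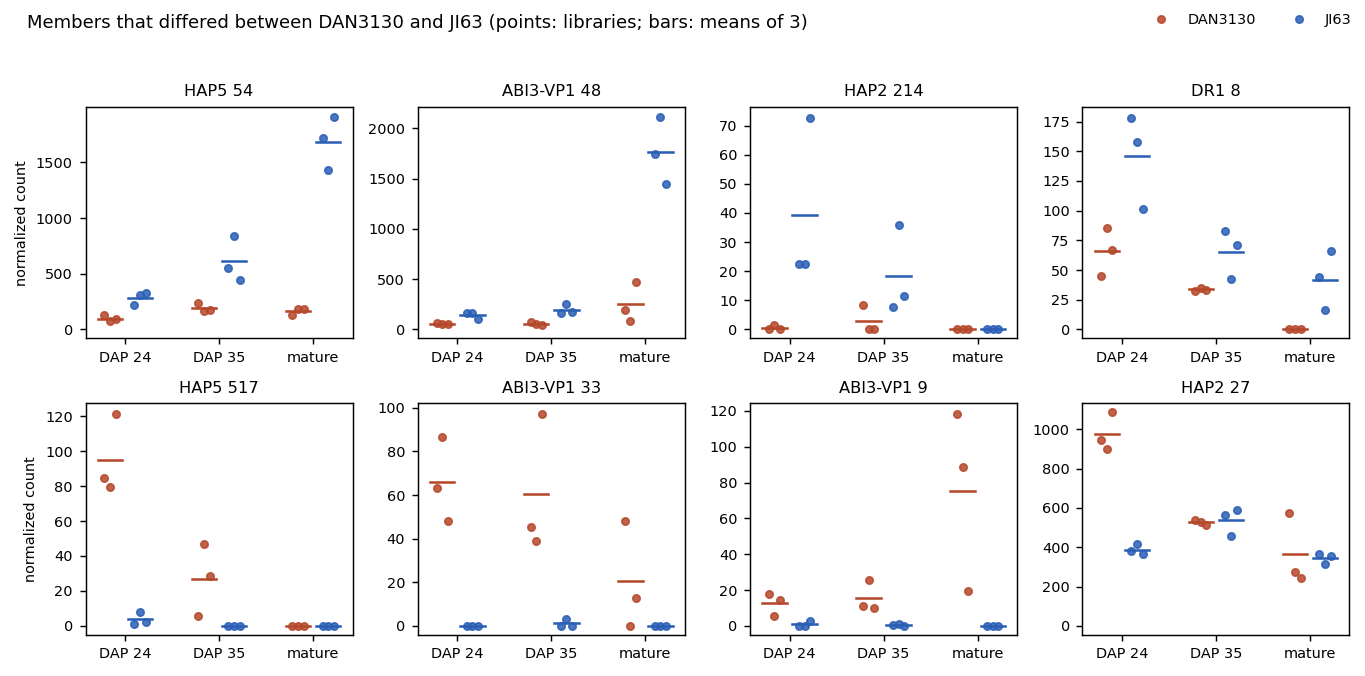
Normalized counts of 8 members by stage, with a point for each library and a bar for the mean of 3, DAN3130 left of JI63 at each stage; every vertical axis is linear and has its own range. HAP5 54 and ABI3-VP1 48 lie lower in DAN3130 at all stages, ABI3-VP1 33 and ABI3-VP1 9 have higher means in DAN3130 at all stages, HAP5 517 has higher values in DAN3130 on DAP 24 and DAP 35, and HAP2 214 has lower means there.

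Other line differences held at 1 or 2 stages. ABI3-VP1 20 had 385, 422 and 362 normalized counts in DAN3130 on DAP 24, against 41.0, 65.9 and 59.2 in JI63 (log2 fold change 2.82 ± 0.99, adjusted p = 0.0482), a call kept by 14 of 30 alternatives. ABI3-VP1 32 (Zm00001d022440, chromosome 7, 177716517 to 177723636) had 1249, 1343 and 1173 normalized counts in DAN3130 on DAP 24, against 2383, 2065 and 1978 in JI63 (log2 fold change -0.77 ± 0.15, adjusted p = 0.00103). At maturity it had 1837, 1789 and 1975 in DAN3130, against 1419, 1826 and 1507 in JI63, and the change to maturity differed between the lines (0.81 ± 0.21, adjusted p = 0.0183). HAP5 58 had 672, 531 and 690.1 in DAN3130 on DAP 35, against 1149, 952 and 1316 in JI63 (-0.85 ± 0.19, adjusted p = 0.00307). At maturity it had 1383, 1519 and 1144 in DAN3130, against 903, 1070.3 and 993 in JI63, and its change to maturity differed between the lines (1.29 ± 0.27, adjusted p = 0.00451). DR1 15 was lower in DAN3130 on DAP 35, with 1018, 1239 and 889 against 1479.6, 1491 and 2216 (-0.71 ± 0.20, adjusted p = 0.0175), and at maturity (-0.63 ± 0.20, adjusted p = 0.0236), with the mature call lost with equal totals. DR1 3 was higher in DAN3130 on DAP 35, with 1031, 1058 and 881 against 636, 497 and 699 (0.71 ± 0.18, adjusted p = 0.00774).

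A DR1 gene and some B3 genes were higher in mature DAN3130. DR1 11 (Zm00001d032328, chromosome 1, 222602363 to 222608289) had 565, 1215 and 473 normalized counts in mature DAN3130, against 204, 302 and 217 in mature JI63 (log2 fold change 1.53 ± 0.33, adjusted p = 0.00191). ABI3-VP1 46 had 164, 106 and 216, against 49.0, 53.8 and 82.8 (1.35 ± 0.33, adjusted p = 0.00483). The libraries of the lines did not overlap for either gene. A locus that joins ABI3-VP1 29 with a second gene, whose count cannot be divided between them, had 420.0, 439 and 761, against 309.6, 304 and 161 (1.07 ± 0.30, adjusted p = 0.0116). The calls of these genes were lost when only the mature groups were fitted and with a variance for each group, and that of ABI3-VP1 29 also without JI63 replicate 41. On DAP 35 the same locus had 595, 551 and 427, against 271, 325 and 252 (0.89 ± 0.30, adjusted p = 0.0439), and ABI3-VP1 51 had 86.6, 47.0 and 22.4, against 139, 170.1 and 176 (-1.81 ± 0.60, adjusted p = 0.0397). The first of these calls held in 16 of 30 alternatives and the second in 19.

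Over the change to maturity, 2 differences of the lines among the 63 members were higher in DAN3130 and 3 lower, beside 5.90% and 7.92% of all loci. They are HAP5 58 and ABI3-VP1 32 on the higher side and HAP5 54, HAP5 517 and DR1 8 on the lower. For HAP5 517, JI63 had no read on DAP 35 or at maturity and so could not fall, and its difference only restates the fall in DAN3130. The number was 13 without mature DAN3130 replicate 35, 8 without mature DAN3130 replicate 33 or mature JI63 replicate 40, and 0 with a variance for each group. That last fit called 438 of all tested loci higher and 902 lower.

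Some members lie within 50 kb of each other, in 4 pairs. ABI3-VP1 46 (chromosome 1, 166741910 to 166744966) is followed by ABI3-VP1 9 (166746593 to 166764018) after 1627 bases. ABI3-VP1 9 had 118, 88.5 and 19.4 normalized counts in mature DAN3130 and no read in mature JI63, and was at least 32.2-fold higher in DAN3130 (adjusted p = 1.54e-05), the same direction as ABI3-VP1 46. The separate intron entry of ABI3-VP1 9 had a mean of 57.2 in mature DAN3130, beside 75.4 for the locus. ABI3-VP1 4 (chromosome 1, 258663739 to 258665853) and ABI3-VP1 30 (258695836 to 258706516) are 29983 bases apart. ABI3-VP1 30, like ABI3-VP1 9 chosen after its values were seen, had 205, 74.4 and 64.8 in mature DAN3130, against 31.0, 2.07 and 4.87 in mature JI63 (log2 fold change 3.60 ± 0.79, adjusted p = 0.00207), while ABI3-VP1 4 had 164, 142 and 59.4, against 41.3, 116 and 12.2, and was not called between the lines. Of the remaining pairs, DR1 2 with HAP3 33 and ABI3-VP1 5 with ABI3-VP1 18, at least 1 locus was below the filter. Whether near-identical copies share reads was not tested.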

How the data were processed

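RNA of whole maize kernels was sequenced. According to the labels and the study's methods, the authors mapped clean reads to the B73 genome (AGPv4) with HISAT2 2.1.0 without strand, assembled loci with Cufflinks, counted reads with HTSeq 0.11.2 and divided counts by DESeq2 size factors. The deposited signal values are these normalized counts per assembled locus in 18 libraries. Every value in a library was a whole multiple of 1 step within 0.1%, so reads were recovered (100% of values whole), and loci held 9428728 to 133264978 reads a library. Values of loci with few reads are the least precise.

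The 26258 intron entries were left out of the tests. Values were analysed as log2(value + 1) with limma 3.58.1 in R 4.3.3 (empirical Bayes with a mean-variance trend, 1 fit of 6 groups, Benjamini-Hochberg adjustment over 29191 of 77704 loci with a mean above 10). The self-test ran on simulated data. Summaries used Python 3.11.15 with pandas 2.3.3 and matplotlib 3.10.9. Members and marker lists were chosen by name with earlier results of these data known. Named in the text are up to 4 members in each direction of a comparison with the largest changes among those called, without overlap and with a mean of at least 50, and the 3 of highest mean in each class. Others are given as chosen after their values were seen. A group without reads was compared at a limit of 3 reads over the group.

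Alternatives were other pseudocounts, filters and scalings, a variance for each group, no trend, fits of only the groups compared, the study's limits, leaving out each library, and count tests on the recovered reads with edgeR 4.0.16 and DESeq2 1.42.0. At an adjusted p under 0.05 edgeR called 5816 loci higher and 7924 lower at maturity in DAN3130, and 5140 and 7227 in JI63. Lists compared with the members were auxin response factors, CO-like factors, seed maturation genes and markers of embryo, starchy endosperm, transfer layer, aleurone and green tissue. No DNA or protein sequences are printed.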

Additional observations from a re-analysis of the deposited data

Results flagged for a closer look

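For 6 members the change between stages differed between the lines by limma's test of the difference itself, DAN3130 minus JI63. From DAP 24 to DAP 35 this was ABI3-VP1 36, with -1.69 on the log2 scale (adjusted p = 0.0498), and 11 of 30 alternatives kept it. In the change to maturity the B3 gene ABI3-VP1 32 differed by 0.81 (adjusted p = 0.0183), kept by 23 of 29 alternatives. The NF-YC genes HAP5 54 and HAP5 58 differed by -1.71 (adjusted p = 0.0148) and 1.29 (adjusted p = 0.00451), each kept by 28 of 29. HAP5 517, another NF-YC gene, differed by -4.40 (adjusted p = 0.00733), kept by 27 of 29, and DR1 8 by -4.35 (adjusted p = 0.00199), kept by 28 of 29. JI63 held no read of HAP5 517 on DAP 35 or at maturity and so had no value that could fall, and that difference restates the fall in DAN3130. Mature DAN3130 libraries held no read of HAP5 517 or DR1 8, so that the sizes of these differences depend on the pseudocount. No group had more than 3 libraries, and single libraries were not tested against their group.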

How the results depend on the processing

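Depth and 3 libraries a group limit all calls. No paired analysis was possible because the replicate numbers of the groups are not shared. Of 46 named changes, 22 were called in every alternative, 24 lost the call in at least 1 and 0 reversed. The counts of called members below that moved by over 1.5 times had causes that were not tested.

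In the change to DAP 35 in DAN3130 (2 calls), 1 was called with a pseudocount of 0.5, with equal totals, with equal upper quartiles and by edgeR, 4 by DESeq2, 6 with a pseudocount of 5 and under the study's limits (2-fold and an unadjusted p under 0.05), 9 when only the groups compared were fitted, and 15 with a variance for each group and over the 12 immature libraries, an alternative chosen after seeing the data. Of all 29191 tested loci, the main fit called 1288 higher and 624 lower here, edgeR 1242 and 327 and DESeq2 2136 and 1210. A pseudocount of 5 gave 1341 and 918, and fitting only the groups compared 2679 and 3326. A variance for each group gave 3349 and 3477. In JI63 (5 calls) the counts of members were 11 with only the groups compared, 16 with a variance for each group and 19 over the immature libraries. Of all loci, 2191 were higher and 2867 lower with only the groups compared, against 1245 and 1408 in the main fit. With a variance for each group they were 3325 and 3718. In the change to maturity in DAN3130 (33 calls) the counts of members were 15 and 18 with only the groups compared and with a variance for each group. Of all loci, 3436 were higher and 5041 lower in the first fit and 2661 and 5946 in the second. The main fit called 5613 and 9196.

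Between the lines on DAP 24 (12 calls) the counts were 26 with only the groups compared, 23 with a variance for each group and 22 over the immature libraries. Of all 29191 tested loci, 6601 were higher and 6915 lower in the first fit and 6693 and 7447 in the second. The main fit called 3277 and 3967. On DAP 35 (15 calls) the count was 28 over the immature libraries. At maturity (16 calls) it was 4 with only the groups compared and 5 with a variance for each group. Of all loci, 1558 were higher and 2105 lower in the first of these and 1714 and 2714 in the second. The main fit called 4551 and 6286. The difference of the lines in the change to DAP 35 (1 call) had 0 calls with a pseudocount of 0.5, a mean above 1, equal totals, equal upper quartiles and no trend, 4 under the study's limits, 5 by DESeq2, 6 with a variance for each group, and 8 with only the groups compared and over the immature libraries. The difference in the change to maturity (5 calls) had 0 with a variance for each group, 3 by edgeR and 12 under the study's limits. Of all loci, the main fit called 1721 higher and 2311 lower there, a variance for each group 438 and 902 and edgeR 704 and 1217. For the difference in the change to DAP 35 the main fit called 484 and 206 and DESeq2 1233 and 719. A variance for each group gave 2315 and 1981 there, and fitting only the groups compared 2320 and 2196.

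Leaving out single libraries gave 0 to 6 calls in the change to DAP 35 in DAN3130, 3 to 8 in JI63, 29 to 38 in the change to maturity in DAN3130 and 23 to 34 in JI63. The line comparisons had 8 to 12 calls for DAP 24, 10 to 19 for DAP 35 and 12 to 26 for mature kernels, and for the differences of the lines 0 to 4 in the change to DAP 35 and 4 to 13 in that to maturity. On DAP 24 the count of 8 was without JI63 replicate 24, and on DAP 35 that of 10 was without DAN3130 replicate 13. The difference in the change to DAP 35 had 3 calls without mature DAN3130 replicate 33, 4 without replicate 34 or 35 and 2 without mature JI63 replicate 40. Counts of all tested loci were not kept for fits without a library or over the immature libraries, nor under the study's limits.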
